A study of Caenorhabditis elegans with 2 samples.

Results

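NHR-10 binding was examined at 10 genes of fatty acid synthesis, desaturation and elongation among 19973 protein-coding genes of the nematode Caenorhabditis elegans. They were pod-2 and fasn-1 (synthesis), fat-5, fat-6 and fat-7 (desaturation), elo-2, elo-5 and elo-6 (elongation), and the regulators sbp-1 and mdt-15. The genes were chosen by function, with earlier results of these data known. The data were chromatin immunoprecipitation sequencing (ChIP-seq) of whole L2 larvae of strain OP239, which carries unc-119(ed3) III and the transgene insertion wgIs239 and stably expresses NHR-10 with GFP and FLAG at its C terminus. The larvae were of mixed sex and of an age given as unknown, the antibody was labelled nhr-10, and a microtip sonicator broke the chromatin. The samples formed 1 group of 2 biological replicates, so no condition was compared with another and no test between groups was possible. Signal from whole larvae does not show in which tissue binding took place or what share of larvae it occurred in. Both replicates came from the same transgenic strain, and no untagged strain was analysed here.

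Fatty acids are built in the cytosol from malonyl-CoA, which acetyl-CoA carboxylase makes and fatty acid synthase joins into palmitate. Elongases then lengthen the chain and desaturases put in double bonds, which sets the fluidity of membranes and the make-up of stored fat. In C. elegans much of this takes place in the intestine and hypodermis, under the control of SBP-1, the Mediator subunit MDT-15 and nuclear receptors such as NHR-49. NHR-10 itself is a nuclear receptor best known for acting with NHR-68 on the propionate shunt.

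None of the 10 genes had a region in the thresholded list, and fat-6, one of the stearoyl-CoA desaturase genes, came nearest to it. A region counted for a gene when its summit lay within 2000 bp of one of the gene's transcription start sites (TSSs) or in the gene body. The pooled list, made by the authors from both replicates together, held 30000 regions, each with a signal value of the authors' own. The authors derived the thresholded list by a measure of how reproducible ranks are between replicates. Its regions were exactly the 491 of highest pooled signal, and 80.4% of them had a summit within 100 bp in both replicate lists. A region outside it thus had a lower pooled signal, and was not shown to be absent from a replicate. By the same rule of summit position, 3.59% of all protein-coding genes had a thresholded region, so a count of 0 among 10 genes is near that background. The highest region at fat-6 had signal 24.1 and rank 661, with 169 regions between it and the end of the thresholded list, whose lowest signal was 27.4. In the list of replicate 1 the highest fat-6 region ranked 447, inside the 491 highest regions of that list, and in the list of replicate 2 alone it ranked 805.

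**Figure D1:**
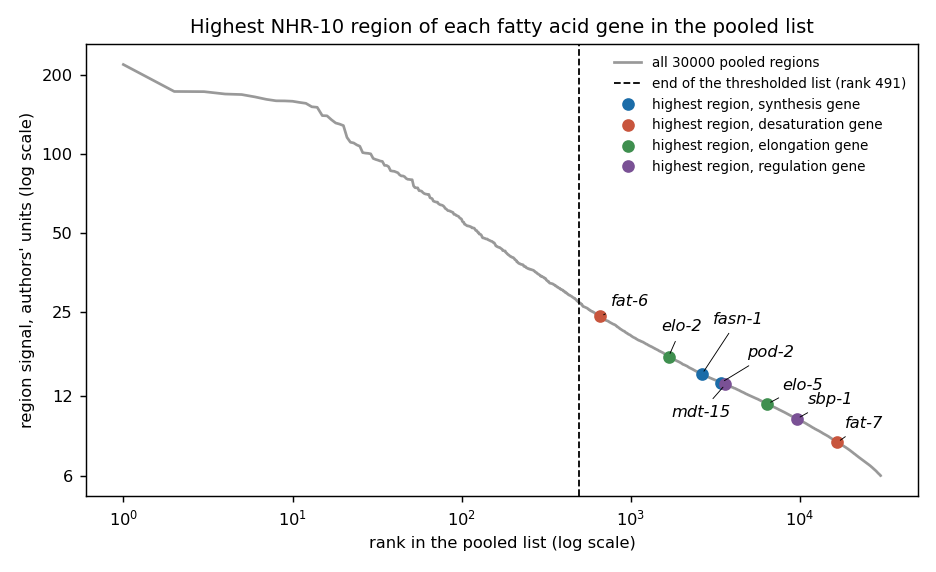
Signal of all 30000 pooled regions (authors' units, log scale) against their rank (log scale), with the highest region of each of the 8 genes that had one marked by role and the dashed line at rank 491. All 8 points lie to the right of the line, fat-6 nearest to it at rank 661 and fat-7 farthest at rank 16654.

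Of the 10 genes, 8 had at least 1 region in the pooled list, against 73.7% of all protein-coding genes. Together they held 41 regions, from 10 at pod-2 and 7 at fat-6 to 1 at fat-7, while fat-5 and elo-6 had none. Windows differed in length, from 4001 bp at fat-5, fat-7, elo-2 and elo-6 to 17921 bp at pod-2, so region counts were also taken per length. On that scale fat-6 had 1.40 regions per kb and elo-2 had 1.25, the members' median was 0.507 and the median of all genes was 0.250 regions per kb. Some regions overlap each other, as at fat-6, elo-2 and pod-2, so these counts are of regions and not of separate sites. The regions at fat-6 and elo-2 also included ones whose nearest TSS was that of another gene, as did those at other members. Densities with regions given only to the nearest TSS were not taken. Among the 1000 pooled regions of highest signal there was 1 member, fat-6, against 6.51% of all genes, and among the 5000 highest there were 5 members (fat-6, elo-2, fasn-1, pod-2 and mdt-15), against 23.4% of all genes. The lists end at a floor, which was a signal of 6.00 in the pooled list, so a gene without a region had none above the floor rather than none at all.

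Sequences of 201 bp centred on the summit are shown for the 2 highest regions at fat-6 and for the highest regions at elo-2, pod-2 and elo-5, since these are the 4 genes whose highest pooled region lay upstream of an annotated TSS. They were read from the RefSeq genome of build WBcel235, the build known as ce11, and run 5′ to 3′ on the strand of the gene. Capitals mark every match on either strand to GAGAGA or to GACGCA, to the nuclear receptor half-sites AGTTCA and AGGTCA, to the GATA factor site TGATAA, or to the E-box CACGTG.
fat-6, chrIV:11915910-11916110, minus strand: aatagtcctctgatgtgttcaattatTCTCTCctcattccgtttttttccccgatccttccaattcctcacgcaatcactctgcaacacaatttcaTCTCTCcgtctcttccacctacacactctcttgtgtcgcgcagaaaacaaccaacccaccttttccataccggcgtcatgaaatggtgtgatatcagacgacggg
fat-6, chrIV:11914764-11914964, minus strand: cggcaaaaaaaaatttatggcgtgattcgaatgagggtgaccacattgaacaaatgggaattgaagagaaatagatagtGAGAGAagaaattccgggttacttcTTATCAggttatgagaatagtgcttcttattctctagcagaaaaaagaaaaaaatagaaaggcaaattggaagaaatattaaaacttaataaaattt
elo-2, chrIV:17468116-17468316, minus strand: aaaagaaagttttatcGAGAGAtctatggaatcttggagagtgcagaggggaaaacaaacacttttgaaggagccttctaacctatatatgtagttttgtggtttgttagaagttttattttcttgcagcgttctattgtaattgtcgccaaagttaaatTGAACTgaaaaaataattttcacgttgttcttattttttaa
pod-2, chrII:1142973-1143173, plus strand: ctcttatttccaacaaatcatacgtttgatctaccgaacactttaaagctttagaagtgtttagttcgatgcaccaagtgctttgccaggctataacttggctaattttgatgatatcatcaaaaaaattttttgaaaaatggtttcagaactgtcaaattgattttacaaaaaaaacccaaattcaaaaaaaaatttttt
elo-5, chrIV:5377438-5377638, minus strand: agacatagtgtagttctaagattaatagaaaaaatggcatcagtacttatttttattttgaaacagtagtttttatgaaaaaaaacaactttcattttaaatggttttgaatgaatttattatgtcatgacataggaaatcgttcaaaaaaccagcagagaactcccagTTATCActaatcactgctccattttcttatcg
The region at fat-6 of highest signal held GAGAGA in 2 places, read as its reverse complement, and the intronic region at fat-6 held it once beside a TGATAA match. The region at elo-2 held GAGAGA and a half-site AGTTCA, the region at elo-5 held TGATAA, and that at pod-2 held none of the 6 words.

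Acetyl-CoA carboxylase, the enzyme of the committed step of synthesis, is encoded by pod-2 on chromosome II (1136785 to 1152705, plus strand, 6 annotated TSSs). The pooled maximum there, of signal 13.5 (rank 3430), had its summit at 1143073 in an intron and 827 bp upstream of an internal TSS. In replicate 1 the highest region at pod-2 had signal 4.42 (rank 4886), 749 bp upstream of an internal TSS, and in replicate 2 it had signal 11.3 (rank 3367) at another place, 1677 bp upstream of the first TSS. The replicates therefore placed their highest pod-2 region differently, although replicate 2 also had a region of signal 5.54 (rank 23478) 35 bp from the pooled summit. The replicate 2 maximum lay in an intron of W09B6.4, a gene that overlaps pod-2 on the opposite strand and has a nearer TSS, 956 bp away. A further 3 regions at pod-2, with signals of 6.22 to 11.9, had summits in its coding exons.

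Fatty acid synthase, which builds palmitate, is encoded by fasn-1 (8975366 to 8986540 on chromosome I, minus strand). The pooled maximum there, of signal 14.6 (rank 2636), had its summit at 8981947 in a coding exon, 4593 bp downstream of the TSS. Replicate 1 had its highest fasn-1 region at signal 6.09 (rank 1742), 1345 bp downstream of the TSS, and replicate 2 at signal 13.1 (rank 2061), 1724 bp downstream. At the pooled summit itself replicate 1 had a region of signal 4.87 (rank 3664) and replicate 2 one of signal 7.80 (rank 10767). All 6 pooled regions at fasn-1 lay inside the gene, 3 of them in coding exons, and 1 region of replicate 1 (signal 4.22) lay 639 bp upstream of the TSS.

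The desaturases differed most from each other. The enzymes of fat-6 and fat-7 both act on stearate to give oleate, and that of fat-5 acts on palmitate. At fat-6 (11913692 to 11915687 on chromosome IV, minus strand, 3 annotated TSSs) the highest pooled region had its summit at 11916010, 323 bp upstream of the first TSS. It had signal 24.1 in the pooled list, 9.02 in replicate 1 (rank 447, summit 70 bp away) and 17.8 in replicate 2 (rank 805, summit 5 bp away). This was the highest region at any of the 10 genes in all 3 lists. Its summit fell in a coding exon of ZK822.9, a short gene on the other strand that starts 63 bp before it, so the region lies close to the starts of both genes and cannot be given to either of them by position.

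A separate region at fat-6 of signal 21.3 (rank 895) had its summit at 11914864, in an intron and 193 bp upstream of the last of the annotated TSSs. Replicate 2 had signal 16.5 there (rank 999), and replicate 1 had no summit within 100 bp. Replicate 1 instead had regions of signal 6.69 and 6.63 at 941 bp and 635 bp downstream of a TSS. The third region by signal (12.3, rank 4789) lay beyond the 3′ end of fat-6, where replicate 2 had signal 16.1 (rank 1070).

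At fat-7 (7151353 to 7153146 on chromosome V, minus strand) the single pooled region had signal 8.02 and rank 16654. Its summit at 7151156 was beyond the 3′ end of the gene, 1990 bp downstream of the TSS and just inside the window, and the TSS of F10D2.8 was nearer, 442 bp away. No replicate had a summit within 100 bp of it, and replicate 2 had no region anywhere in the window. In replicate 1 the highest region at fat-7 had signal 3.81 (rank 7338), near the same 3′ end, and another of signal 3.13 (rank 11375) lay 1820 bp upstream of the TSS. At fat-5 (17725004 to 17726818 on chromosome V, plus strand) no list had a region. Sequences of 36 bp that occur again elsewhere in the genome made up 0.301% of the fat-6 window, 0.378% of the fat-7 window and 0.0504% of the fat-5 window; the read length was not given, and the part of repeats in these counts was not tested.

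**Figure D2:**
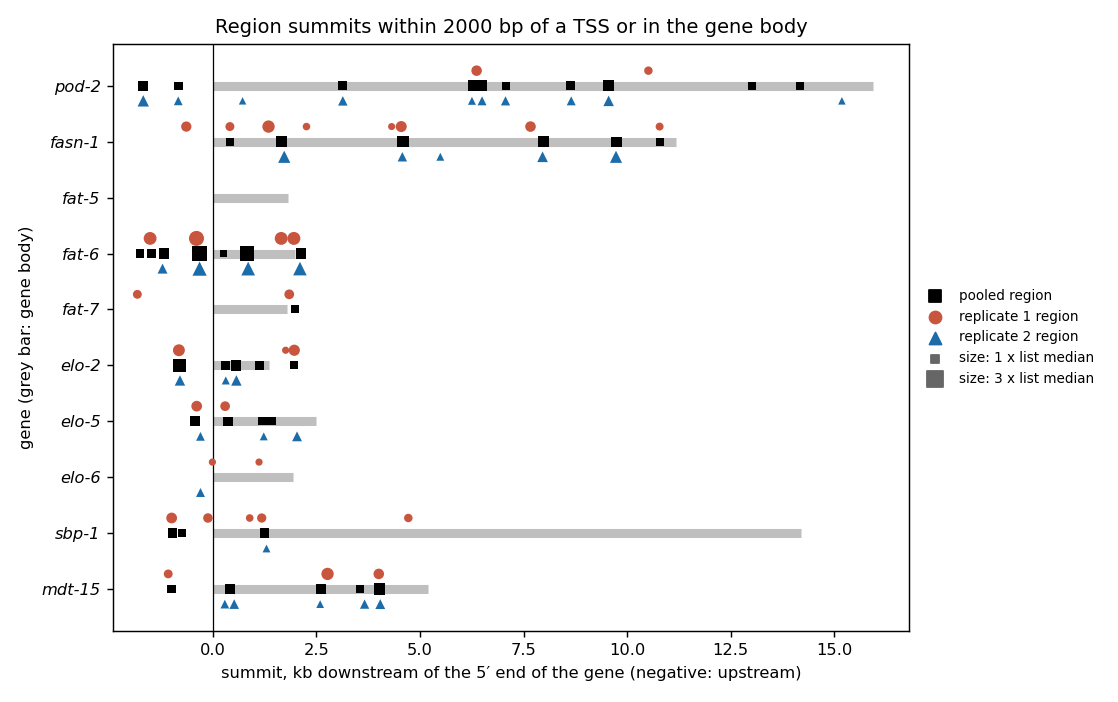
Summits of the regions counted for each gene (pooled squares, replicate 1 circles, replicate 2 triangles), in kb from the 5′ end of the gene in the direction of transcription, with symbol area proportional to signal over the median of the list and a grey bar for the gene body. Regions of all 3 lists fall together upstream of fat-6 and elo-2, whereas fat-5 has none and elo-6 has replicate regions only.

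The elongase gene elo-2, whose enzyme lengthens palmitate, came next after fat-6 among the genes in the pooled list. In replicate 1 fat-6, fasn-1 and mdt-15 were above it, and in replicate 2 fat-6, fasn-1 and pod-2 were. The gene lies on chromosome IV (17466062 to 17467408, minus strand), and the summit at 17468216 was 808 bp upstream of its TSS in intergenic sequence. The signal was 17.0 (rank 1673) in the pooled list, 5.64 (rank 2272) in replicate 1 with the summit 9 bp away, and 9.49 (rank 6049) in replicate 2 with the summit 16 bp away. Both replicates thus had a region at this place, but in replicate 2 a region in a coding exon of elo-2, 570 bp downstream of the TSS, was slightly higher (9.61, rank 5781). Of the other 4 pooled regions at elo-2, with signals of 6.70 to 11.5, 3 were in its coding exons.

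The enzymes of elo-5 and elo-6 lengthen branched-chain fatty acids, and the genes lie near each other on chromosome IV. At elo-5 (5374616 to 5377117, minus strand) the highest pooled region had signal 11.2 and rank 6433, with the summit at 5377538, 421 bp upstream of the TSS. Replicate 1 had signal 4.57 (rank 4441) at a summit 33 bp away. Replicate 2 had no summit within 100 bp; it had one of signal 6.74 (rank 15634) 297 bp upstream of the TSS, and its highest, of signal 8.53 (rank 8330), lay 2033 bp downstream within the gene. At elo-6 (5386629 to 5388559, minus strand) the pooled list had no region although each replicate list had at least 1. Replicate 1 had regions of signal 2.08 and 2.07 (ranks 22090 and 22160 of 22993), and replicate 2 had a region of signal 6.99 (rank 14321) 316 bp upstream of the TSS. The replicate 1 region nearest to it had its summit 9 bp upstream of the TSS, so the summits were not within 100 bp. The regions themselves overlapped, from 5388343 to 5388792 in replicate 1 and from 5388670 to 5389079 in replicate 2.

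Of the regulators, sbp-1, the SREBP orthologue of C. elegans, was above the median of all genes in the pooled list and in replicate 1 (percentiles 62.3 and 79.7) and below it in replicate 2 (percentile 32.0). It lies on chromosome III (11428367 to 11442566, minus strand), and the pooled maximum there, of signal 9.85 (rank 9603), was 1247 bp downstream of the TSS in an intron. In replicate 1 the highest region at sbp-1 lay 992 bp upstream of the TSS with signal 4.63 (rank 4281), and in replicate 2 the only region was the intronic one, with signal 5.37 (rank 24945). The part of the sbp-1 body beyond 2000 bp from the TSS had no pooled region and 1 region of replicate 1 (signal 2.88). In that part 59.0% of 36 bp sequences occur elsewhere in the genome, against 0.202% within 2000 bp of the TSS, and the part of this in the region count was not tested.

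The coactivator gene mdt-15 (5828557 to 5833751 on chromosome III, minus strand, 4 annotated TSSs) encodes a Mediator subunit that works with SBP-1 and NHR-49. The pooled maximum there, of signal 13.3 (rank 3626), had its summit at 5829734 in the 3′ UTR. Replicate 1 had signal 4.43 there (rank 4848, summit 12 bp away) and replicate 2 had 8.57 (rank 8230, summit 24 bp away), so both lists had the region at the 3′ end. Replicate 1 had a higher region elsewhere, of signal 6.04 (rank 1798), 2726 bp downstream of the TSS. By distance the nearest start to the 3′ UTR region was that of R12B2.13, a short gene inside mdt-15 on the same strand, 3742 bp away. Upstream of mdt-15 the pooled list had a region of signal 8.07 (rank 16376), 999 bp from its TSS and 597 bp upstream of R12B2.6. Every pooled region at mdt-15 had the TSS of R12B2.13 or R12B2.6 nearest, so mdt-15 had no region under assignment by nearest TSS.

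Between replicates, fat-6 stood apart and the order of the other genes changed. No source states how signal was scaled between lists, and each gene's highest signal was divided by the median signal of its list (8.38 pooled, 3.12 in replicate 1, 6.86 in replicate 2), and no mean or SD was formed. The replicate 1 list held 22993 regions down to a signal of 2.00, and the replicate 2 list 30000 down to 4.80. Each median depends on where its list ends, so ratios from different lists need not share a scale. For fat-6 the ratio to the list median was 2.88 in the pooled list, 2.89 in replicate 1 and 2.59 in replicate 2. For fasn-1 the ratios were 1.74, 1.95 and 1.90 in the same lists, for elo-2 they were 2.02, 1.81 and 1.40, and for pod-2 they were 1.61, 1.42 and 1.65. The ratios of mdt-15 were 1.59, 1.93 and 1.25, and those of elo-5 were 1.34, 1.47 and 1.24. For sbp-1 the ratios were 1.18, 1.48 and 0.783, and fat-7 had 0.956 in the pooled list and 1.22 in replicate 1. For elo-6, which had no pooled region, they were 0.665 in replicate 1 and 1.02 in replicate 2. The replicate values of fat-6 lay above those of every other member. The pooled order of elo-2 and fasn-1 was reversed in both replicates, and the replicate ranges of elo-2, pod-2, mdt-15, elo-5 and sbp-1 overlapped, so their order cannot be told from these lists. The range of fasn-1 overlapped that of mdt-15 and no other, and the range of elo-6 that of sbp-1 and no other. With a window of 5000 bp in place of 2000 bp, the pooled ratio was 2.13 for elo-5 and 2.40 for mdt-15. The gap between replicates was widest at sbp-1 and mdt-15 among genes with a region in both.

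**Figure D3:**
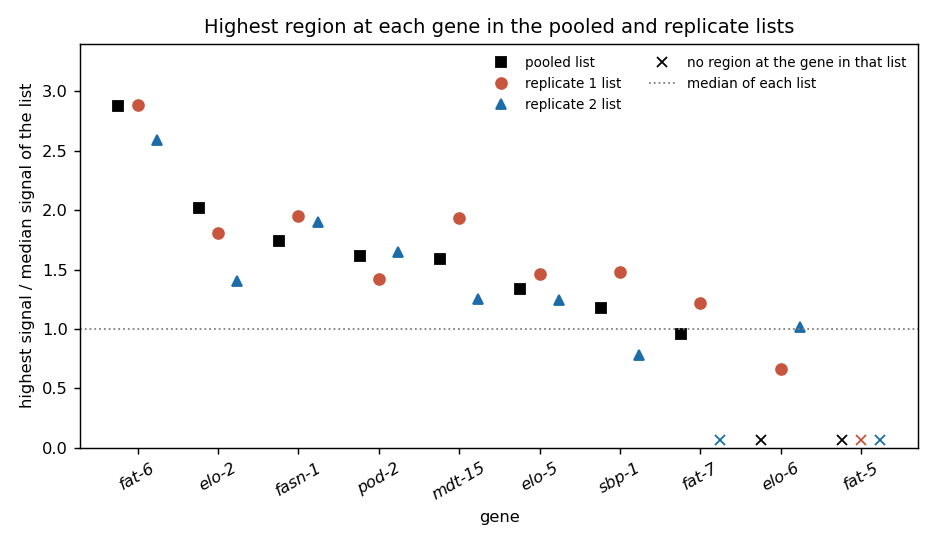
Highest signal at each gene divided by the median signal of the list, for the pooled list (squares), replicate 1 (circles) and replicate 2 (triangles); crosses at the foot mark genes with no region in that list and the dotted line is the list median. The 3 fat-6 values, 2.59 to 2.89, lie above all others, and fat-5 has no value in any list.

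The replicate lists taken alone held a region at 9 of the 10 genes in replicate 1 (65.9% of all genes) and at 8 in replicate 2 (74.1%). The summit of the highest pooled region was matched within 100 bp in both replicate lists at 6 of the 8 genes that had one, namely fat-6, elo-2, fasn-1, pod-2, mdt-15 and sbp-1. Over all genes with a pooled region this share was 20.6%. Within 50 bp the count was 3 of 8 (fasn-1, elo-2 and mdt-15), against 12.2% of all genes with a pooled region. High ranks were matched more often than low ranks, and the share reached 80.4% in the thresholded list. Taken over all 41 member regions, 6 were matched in both replicates (14.6%), against 12.7% of all pooled regions. By band, 2 of 3 member regions at ranks 492 to 2000, 3 of 5 at ranks 2001 to 5000, 1 of 10 at ranks 5001 to 10000 and 0 of 23 beyond were matched, against 50.8%, 31.0%, 17.7% and 4.24% of all pooled regions. The pooled list was made from the same libraries, so the matching describes the lists and is no independent check.

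Relative to all protein-coding genes, the highest pooled signal of the members had a median percentile of 76.6, and 7 of the 10 were above the median of all genes. A percentile here is the percent of genes with a lower highest signal, counting tied genes at their middle rank and genes without a region as tied and lowest, at 13.1. By percentile fat-6 was at 95.4, elo-2 at 90.1, fasn-1 at 85.4, pod-2 at 82.2, mdt-15 at 81.5, elo-5 at 71.7, sbp-1 at 62.3 and fat-7 at 46.0. In the replicate lists the median percentile was 79.4 (replicate 1) and 65.7 (replicate 2). Long genes have more room for a high region, and with the TSS windows alone counted the median was 71.4. These are descriptions of a list chosen with earlier results known, and nothing particular to the list was tested.

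The closest profiles to fat-6 over the percentiles of the 3 lists were those of ZK822.9 and ZK822.10, at distance 0 because they share its regions upstream, followed by F36A2.7 at a distance of 0.344 percentile points. The highest signal at fat-6 was 24.1 in the pooled list, 9.02 in replicate 1 and 17.8 in replicate 2, against 23.5, 9.23 and 18.0 at F36A2.7 in the same lists.

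Most regions at the members lay inside genes. Of the 41 member summits, 13 were in coding exons (31.7%), 16 in introns (39.0%), 3 in 3′ UTRs (7.32%) and 9 in intergenic sequence (22.0%). The rule itself takes gene bodies, so the fitting comparison is with the 25653 pooled regions that count for any protein-coding gene, of which 23.3% were in coding exons, 39.0% in introns, 5.47% in 3′ UTRs and 29.9% in intergenic sequence. In the thresholded list 75.8% were intergenic and 1.43% in coding exons. For 16 of the 41 regions the nearest TSS was that of another gene. No annotated non-coding gene lay within 500 bp of a member summit, with piRNA genes left out of that search. These counts were not taken over all pooled regions, so no background stands beside them.

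Base composition and short words at the member summits were close to those of the pooled list. The median GC content of the 201 bp windows was 36.3% at the members, against 44.3% in the thresholded list and 34.8% over all pooled regions, and it was 46.3% at the highest fat-6 region. GAGAGA was in 7 of 41 member windows (17.1%), against 39.7% of thresholded and 13.8% of all pooled windows. The 7 windows were at fat-6 (in both regions shown above), elo-2, elo-5, fasn-1, mdt-15 and pod-2. GACGCA was in 1 window, at pod-2 (2.44%), against 29.1% of thresholded and 5.68% of all pooled windows. TGATAA was in 7 windows (17.1%), against 9.57% of thresholded and 19.2% of all pooled windows. The half-site AGTTCA was in 3 windows (7.32%), against 5.70% and 12.7% of the thresholded and pooled lists, and AGGTCA was in 2 windows (4.88%), against 4.89% and 4.90%. CACGTG was in 1 window, in a coding exon of pod-2, against 8.55% of thresholded and 3.81% of all pooled windows. A match is a description of the letters and not a site.

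Another 26 genes of the same pathway were set beside the 10. They encode ATP citrate lyases (acly-1, acly-2), malonyl-CoA decarboxylase (mlcd-1), the polyunsaturated fatty acid desaturases fat-1 to fat-4, the elongases elo-1, elo-3, elo-4, elo-7, elo-8 and elo-9, the reductase and dehydratase genes of the elongation cycle (let-767, hpo-8, art-1), an acyl-CoA synthetase (acs-1), cytochromes b5 (cytb-5.1, cytb-5.2), and the regulators nhr-13, nhr-49, nhr-66, nhr-80, paqr-2, iglr-2 and scp-1. Of these, 1 had a thresholded region (3.59% of all genes), 4 had one of the 1000 highest regions (6.51%), 14 had one of the 5000 highest (23.4%) and 24 had any pooled region (73.7%). Of the 24, 10 had the highest region matched in both replicates, against 20.6% of all genes with a pooled region. Their median percentile was 78.4, and 22 of the 26 were above the median of all genes. The highest region of fat-3 (rank 1441) was also that of fat-4, so 1 region counted for both genes.

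The single pathway gene with a thresholded region was nhr-49, a nuclear receptor that controls desaturase genes, with signal 36.4 and rank 256 at a summit 276 bp upstream of its TSS. Its highest signal was 11.5 in replicate 1, at rank 204, and 22.5 in replicate 2, at rank 450. Next came elo-3, an elongase gene, with signal 27.2 and rank 501, 1897 bp upstream of its TSS and just outside the threshold. Its highest regions had signal 2.80 at rank 14082 in replicate 1 and 20.0 at rank 604 in replicate 2, so the replicates differed at elo-3. For mlcd-1, whose enzyme breaks down malonyl-CoA, the signal was 25.2 (rank 589), and the TSS of idhg-1 was nearer to that summit. Its highest regions had signal 5.78 (rank 2094) in replicate 1 and 16.0 (rank 1082) in replicate 2. Both elo-3 and mlcd-1 ranked above fat-6 in the pooled list and below it in replicate 1, and in replicate 2 elo-3 alone of the pair ranked above it.

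**Figure D4:**
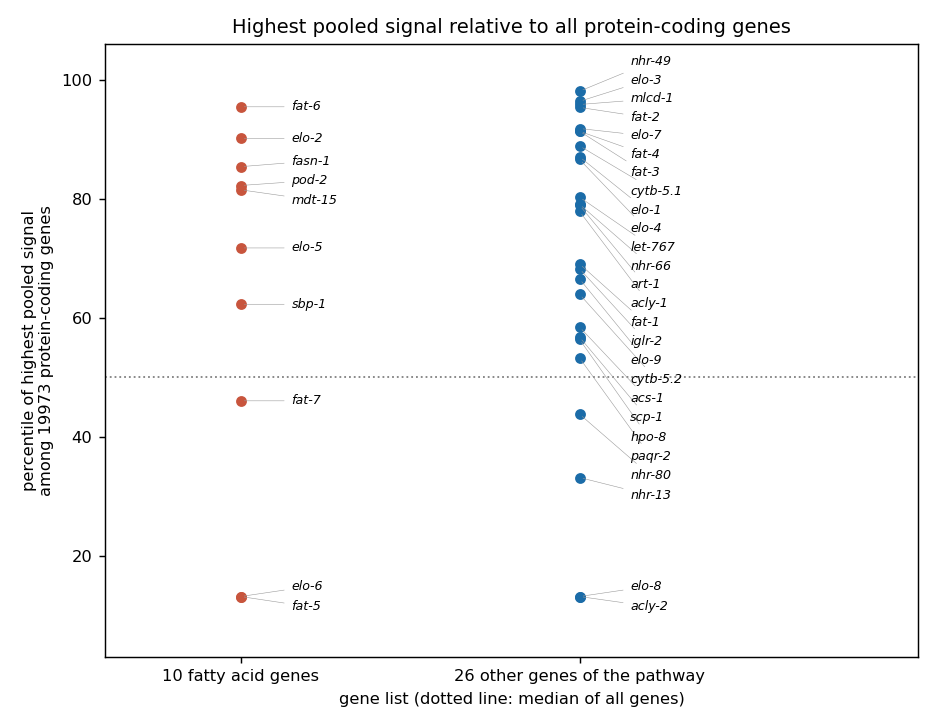
Percentile of the highest pooled signal among 19973 protein-coding genes for the 10 fatty acid genes and for 26 other genes of the pathway, with the dotted line at the median of all genes. In the left column 7 of 10 genes lie above the line and in the right column 22 of 26, with the genes that had no region together at 13.1.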

How the data were processed

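NHR-10 ChIP-seq was measured in 2 biological replicates of whole L2 larvae. Per the labels and the deposited notes, the authors derived each replicate list from its own alignment and a control, the pooled list from the 2 alignments together with that control, and the thresholded list from these lists by irreproducible discovery rate (IDR), all on ce11. Each region has a signal value, deposited by the authors. Not given in the sources used here are the region caller, the IDR cutoff and the scaling between lists. Read counts are not part of these lists. The depth is therefore unknown, and no interval was computed. The control and the ce10 lists were not analysed here.

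Gene positions came from Ensembl release 115 (WBcel235), and every region ended inside its reference chromosome. Regions were assigned by summit (within 2000 bp of any TSS, or in the gene body), ranked within each list, and matched between lists at 100 bp. The code was tested on simulated data. Python 3.11.15, numpy 2.4.6, pandas 2.3.3 and matplotlib 3.10.9 were used. Alternatives changed the window, TSS, overlap, assignment, threshold, matching distance and replicates.

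The members, gene lists and words were chosen with earlier results of these data known. Named genes were all members and, of the other pathway genes, those with a thresholded region and the 3 of highest signal. The gene with the nearest TSS to a member's highest region and the 3 genes of most similar percentiles to the highest member were also named. Genes named beside other regions (W09B6.4, R12B2.6 and idhg-1) were chosen after their values were seen.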

Additional observations from a re-analysis of the deposited data

How the results depend on the processing

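The count of members with a thresholded region stayed at 0 with windows of 1000 bp or 5000 bp, TSS windows alone, 1 TSS per gene, assignment by overlap or by nearest TSS, and the upper 50% of thresholded regions. With 491 regions of 1 replicate it was 0 without replicate 1 and 1 without replicate 2 (fat-6). With the 1000 and 5000 highest pooled regions it was 1 and 5, since these sets are larger. Between 6 and 9 members had any region over all alternatives, with 6 under assignment by nearest TSS, where mdt-15 and fat-7 had none. The share of all genes with a region was not taken for other windows, TSSs or assignment rules. The 41 regions became 25 when each counted only for the gene with the nearest TSS, and ran from 31 to 56 otherwise. The median percentile was 65.7 without replicate 1 and 79.4 without replicate 2, and 71.4 to 81.4 under the other alternatives. The number of members matched in both replicates was 3 at 50 bp and 7 at 200 bp or by overlap. The share of all genes was taken at 100 bp and 50 bp only, so no background stands beside the 7. Of 45 ratios of single genes to the pooled median recomputed with another window, TSS or assignment rule, 37 were unchanged, 5 were higher and 3 lower. With a window of 5000 bp, regions farther out raised elo-5 to 2.13 and mdt-15 to 2.40, and by overlap pod-2 came to 2.42 and ranked above elo-2 and fasn-1. Without counts, depth sets a limit that cannot be stated: a gene below the floor of a list cannot be told from one with no binding.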
